A study of Bos taurus with 43 samples.

Results

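A set of 8 bovine genes, given here by their Ensembl identifiers, was followed in endometrial RNA of 43 cows whose later pregnancy outcome was known. They are ENSBTAG00000054069, ENSBTAG00000051506, ENSBTAG00000053542, ENSBTAG00000007053, ENSBTAG00000026275, ENSBTAG00000006377, ENSBTAG00000053696 and ENSBTAG00000031205, 8 of 27570 identifiers counted in each library. All 8 were among the 15206 genes that passed the low-count filter. They were chosen by their counts in these same libraries, as genes near the top of the comparison of pregnant with nonpregnant cows. In that comparison they ranked between 2nd and 14th of 15206 by p. Their outcome values are therefore a description, and no test of outcome is given for them. The values below separate genes whose level was shifted in most cows from genes whose difference came from bursts of expression in a few.

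The animals were multiparous Angus x Brahman cows, 25 later pregnant and 18 later nonpregnant, enrolled in 2 rounds of estrus synchronization called blocks. Block 2 held 14 pregnant and 8 nonpregnant cows, and block 1 held 11 pregnant and 10 nonpregnant cows. Every cow, in both outcome groups, received an intravaginal progesterone device with a GnRH analogue, then a PGF2alpha analogue 7 days later at device removal, and a second GnRH dose 3 days after that, which set day 0. Only cows seen in estrus were used. A cytology brush sampled the uterine lumen on day 4, each cow was given an in vitro-produced embryo on day 7, and pregnancy was scored near day 30. Blood progesterone (P4) of day 4 is a label without a stated unit. P4 ranged from 0.34 to 1.81 (median 0.86) in pregnant cows and from 0.27 to 1.88 (median 0.51) in nonpregnant cows. High P4 here means at or above the median of 0.72 over all cows and low P4 means below it. High P4 was found in 16 pregnant and 6 nonpregnant cows, and low P4 in 9 pregnant and 12 nonpregnant cows. The thinnest cell was that of nonpregnant cows of block 2 with high P4, which held 2 cows.

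The endometrium is the lining of the uterus, and its luminal epithelium is the layer that first meets the embryo. In early diestrus the young corpus luteum begins to secrete progesterone, which acts through the progesterone receptor to change what the endometrium expresses and secretes before attachment. The embryo of cattle lives free in the lumen during that time and draws on those secretions. The files pair none of the 8 identifiers with a gene name, so no role can be stated for any of them. The luminal cell label was not checked against marker genes for the same reason.

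Total counts per cow lay between 11159501 and 23572549 (median 15544498). One library stood apart for these genes. Nonpregnant replicate 3, a cow of block 2 with a P4 of 0.46, had the highest value of all 43 cows in 5 of the 8 genes and was among the 3 highest cows in 6 of the 8. It was the highest cow in 4.41% of the 15206 tested genes (670 genes, where an even share would be 354). Its 17930688 counts and its TMM scaling factor of 0.916 lay inside the range of the other libraries, and its 10 most abundant genes took 11.01% of its counts, against 3.70% to 11.3% over all cows. Several results that rest on this cow are also given without it. The fits within 1 P4 level, block or outcome were not repeated without it.

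Over all genes, none passed an adjusted p of 0.05 for outcome (0.0% of 15206, quasi-likelihood test of edgeR, adjusted for block). DESeq2 and limma voom, the latter run with sample weights throughout, also called 0. At an unadjusted p under 0.05, edgeR listed 455 genes (2.99%), with 147 higher (0.967%) and 308 lower (2.03%) in pregnant cows. DESeq2 listed 530 and limma voom 613. All 8 genes were among the 455, as their choice required, 2 higher and 6 lower. In DESeq2 7 of the 8 were listed (2 higher, 5 lower), against 3.49% of all genes. In limma voom 4 of the 8 were listed (1 higher, 3 lower), against 4.03% of all genes. These fits use the cows and contrast by which the 8 were chosen, so their counts are no separate test. The absolute log2 fold change of the 8 genes in edgeR had a median of 0.94, against 0.09 over all tested genes. This also follows from how the 8 were chosen.

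A gene was called a burst gene where its 3 highest cows held at least 25% of its CPM summed over the 43 cows (CPM is the count scaled to the TMM-adjusted library size, and an even spread would give 3 cows 6.98%). By this measure 650 of the 15206 genes (4.27%) were burst genes, and the median share over all genes was 11.8%. Of the 8 genes, 4 were below the limit. Their shares were 9.99% for ENSBTAG00000051506, 11.2% for ENSBTAG00000007053, 12.4% for ENSBTAG00000053696 and 16.5% for ENSBTAG00000006377. These 4 are called steady. The other 4 exceeded it, with 35.4% for ENSBTAG00000054069, 49.4% for ENSBTAG00000031205, 49.6% for ENSBTAG00000026275 and 56.1% for ENSBTAG00000053542, each above the 98th percentile of all tested genes. The 8 were chosen on outcome values that include their highest cows, so the choice can enter these shares. The 3 highest cows were all nonpregnant for ENSBTAG00000053542 and ENSBTAG00000026275 and all pregnant for ENSBTAG00000054069.

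**Figure D1:**
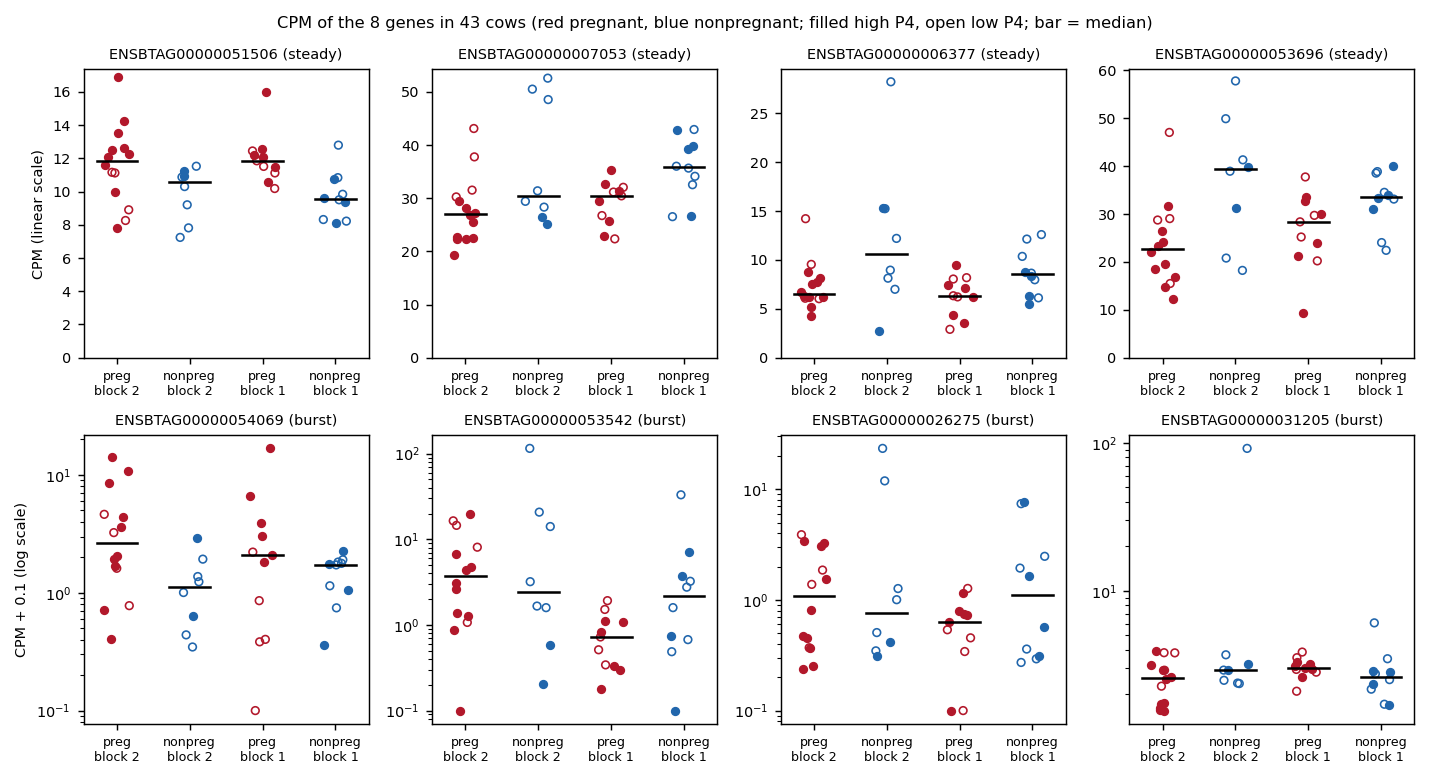
CPM of each gene in each of 43 cows, by outcome and block, with a linear axis for the 4 steady genes (top) and a log axis of CPM + 0.1 for the 4 burst genes (bottom). Red points are pregnant and blue points nonpregnant cows, filled points have high P4, open points low P4, and bars are medians. The 4 steady genes show shifted but overlapping groups, and ENSBTAG00000031205 shows 1 nonpregnant cow at 91.6 CPM far above all others.

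ENSBTAG00000051506 was the steady gene that was higher in pregnant cows. Its lowest, median and highest values were 7.81, 11.85 and 16.9 CPM in pregnant cows and 7.24, 9.71 and 12.8 CPM in nonpregnant cows. The groups overlapped, and a pregnant cow had the higher value in 80.0% of all pregnant-nonpregnant pairs. That share ran from 37.1% to 62.7% between the 5th and 95th percentiles of tested genes. The gene was chosen on its outcome difference in these cows, so a share outside that range is no separate evidence. In block 2 the medians were 12.4 CPM in pregnant cows and 11.1 CPM in nonpregnant cows with high P4, and 10.01 and 9.75 CPM in pregnant cows and nonpregnant cows with low P4. In block 1 they were 12.2 CPM in pregnant cows and 9.49 CPM in nonpregnant cows with high P4, and 11.5 and 9.67 CPM in pregnant cows and nonpregnant cows with low P4. The pregnant median was thus above the nonpregnant one in all 4 cells, by the least in block 2 at low P4. The mean was 11.8 ± 2.05 CPM in pregnant cows and 9.81 ± 1.49 CPM in nonpregnant cows (SD), and the fitted log2 fold change was 0.27 ± 0.08 (SE). Leaving out each cow in turn moved it between 0.24 and 0.29. In bulk RNA such as this, less RNA per cell cannot be told apart from fewer cells of the type that expresses the gene.

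ENSBTAG00000007053 was lower in pregnant cows in a like steady manner. It had 19.4, 28.2 and 43.1 CPM (lowest, median, highest) in pregnant cows, against 25.2, 34.9 and 52.6 CPM in nonpregnant cows. The groups overlapped over most of their range. In block 2 with high P4 the medians were 24.1 CPM in pregnant cows and 25.8 CPM in nonpregnant cows, the smallest gap of the 4 cells. In block 2 with low P4 the medians were 34.7 CPM in pregnant cows and 39.98 CPM in nonpregnant cows. In block 1 they were 30.4 CPM in pregnant cows and 39.6 CPM in nonpregnant cows with high P4, and 30.45 and 34.9 CPM in pregnant cows and nonpregnant cows with low P4. All 4 cells had the lower median in pregnant cows, and the pregnant cow was the higher of a pair in 24.7% of pairs. Its fitted log2 fold change was -0.34 ± 0.10 (SE), with -0.40 in block 2 and -0.29 in block 1 fitted alone. It stayed between -0.37 and -0.30 without any 1 cow. The log2 ratio of means was -0.35 with all cows and -0.22 without the 3 highest, all nonpregnant.

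ENSBTAG00000053696 was also lower in pregnant cows. Pregnant cows had 9.36, 24.3 and 47.0 CPM (lowest, median, highest) and nonpregnant cows 18.2, 34.2 and 57.8 CPM. A pregnant cow was the higher in 20.2% of pairs, 20.5% in block 2 and 21.8% in block 1. Among cows with high P4 it was the higher in 7.29% of pairs, with 16 pregnant cows at 9.36 to 33.5 CPM and 6 nonpregnant cows at 31.0 to 40.05 CPM. Among cows with low P4 the share was 34.3%, and both groups spread more widely, with 15.5 to 47.0 CPM in 9 pregnant cows and 18.2 to 57.8 CPM in 12 nonpregnant cows. For all cows the log2 fold change was -0.48 ± 0.14 (SE). It was -0.66 in block 2 and -0.31 in block 1, and -0.59 at high P4 and -0.25 at low P4. The tests of these differences between blocks and with P4 are given with the interactions.

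ENSBTAG00000006377 was the steady gene nearest to the limit of 25%. It had 2.903, 6.34 and 14.2 CPM (lowest, median, highest) in pregnant cows and 2.73, 8.70 and 28.2 CPM in nonpregnant cows. Its highest cow was nonpregnant replicate 3 at 28.2 CPM, 1.84 times the next cow, nonpregnant replicate 12 at 15.3 CPM. The log2 fold change was -0.59 ± 0.17 (SE) with that cow and -0.44 without it. The log2 ratio of means was -0.57 with all cows and -0.28 without the 3 highest, all nonpregnant, and the ratio of medians was -0.46. All 4 cells of block and P4 had the lower median in pregnant cows, with 6.51 against 9.03 CPM in block 2 at high P4, where the 2 nonpregnant cows were at 2.73 and 15.3 CPM. With the 14 cows of lowest and the 14 of highest P4 in place of the split at the median, ENSBTAG00000007053 and ENSBTAG00000053696 still had all 4 cells in 1 direction, ENSBTAG00000051506 had 3 and ENSBTAG00000006377 had 2.

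**Figure D2:**
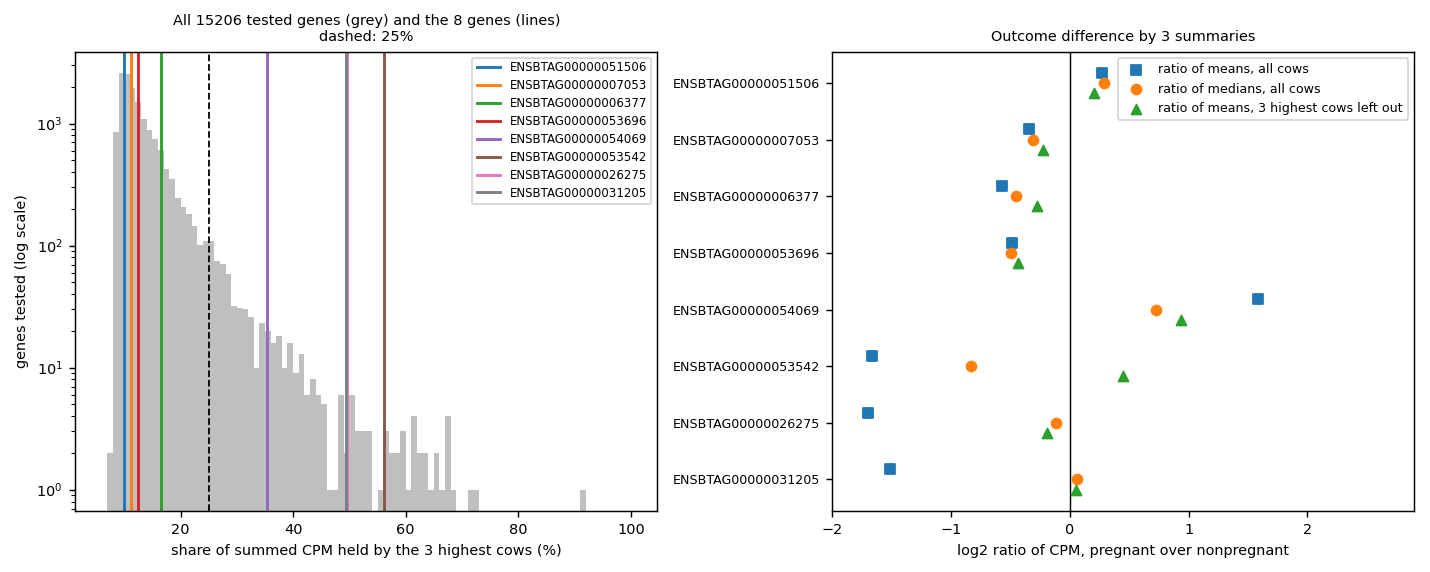
Left, the share of summed CPM held by the 3 highest cows, in percent, for all tested genes (grey histogram, log count axis) and the 8 genes (lines), with the 25% limit dashed. Right, the log2 ratio of pregnant over nonpregnant CPM by means, by medians and by means without the 3 highest cows of each gene. The ratio of means of ENSBTAG00000006377 is -0.57 with all cows and -0.28 without its 3 highest, and that of ENSBTAG00000053542 is -1.67 and 0.45.

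Among the burst genes, only ENSBTAG00000054069 had the higher mean in pregnant cows. It had 0, 2.00 and 16.7 CPM (lowest, median, highest) in pregnant cows and 0.247, 1.21 and 2.83 CPM in nonpregnant cows. The cow at 0 counts was pregnant replicate 12, where 3 counts would have been 0.234 CPM. The 3 cows above 10 CPM were pregnant replicate 16 at 16.7, pregnant replicate 25 at 13.98 and pregnant replicate 23 at 10.75 CPM. All 3 had high P4 (1.79, 0.86 and 1.24). Its medians were the higher in pregnant cows in 3 of the 4 cells. In block 2 they were 2.72 CPM in pregnant cows and 1.68 CPM in nonpregnant cows with high P4, and 2.33 CPM in pregnant cows and 1.02 CPM in nonpregnant cows with low P4. In block 1 they were 3.35 CPM in pregnant cows and 1.30 CPM in nonpregnant cows with high P4, and 0.302 CPM in pregnant cows and 1.65 CPM in nonpregnant cows with low P4, the 1 cell that ran the other way. With both blocks together, at high P4 the medians were 3.20 CPM in 16 pregnant cows and 1.30 CPM in 6 nonpregnant cows, and a pregnant cow was the higher in 79.2% of pairs. At low P4 they were 0.757 CPM in 9 pregnant cows and 1.21 CPM in 12 nonpregnant cows, and the share was 47.2%. With the 14 cows of lowest and 14 of highest P4 in place of the split at the median, the pregnant median was the higher in 2 of the 4 cells. The log2 fold change was 1.56 ± 0.46 (SE) over all cows, 1.86 ± 0.71 at high P4 and 0.18 ± 0.57 at low P4. It was 1.21 without pregnant replicate 16 and 0.86 in limma voom. The log2 ratio of medians was 0.73, and that of means without the 3 highest cows was 0.94, so the direction over all cows did not rest on those 3 cows alone.

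ENSBTAG00000053542 had the largest fitted difference of the 8 and the largest share of CPM in 3 cows. Pregnant cows had 0, 1.18 and 19.8 CPM (lowest, median, highest), and nonpregnant cows had 0, 2.11 and 115 CPM. The 2 cows at 0 counts were pregnant replicate 23 and nonpregnant replicate 13, where 3 counts would have been 0.161 CPM each. Its highest cows were nonpregnant replicate 3 at 115 CPM, nonpregnant replicate 15 at 32.97 CPM and nonpregnant replicate 5 at 20.7 CPM, followed by pregnant replicate 8 at 19.8 CPM. The direction was clearest in block 1, where 11 pregnant cows had 0.077 to 1.82 CPM (median 0.624) and 10 nonpregnant cows had 0 to 32.97 CPM (median 2.08). In block 2 the medians ran the other way, at 3.65 CPM in 14 pregnant cows and 2.33 CPM in 8 nonpregnant cows. The fit gave a log2 fold change of -2.29 ± 0.64 (SE). Leaving out nonpregnant replicate 3 gave -1.59, and leaving out nonpregnant replicate 15 gave -1.68. It was -1.13 in limma voom, -1.08 at high P4 and -2.12 at low P4. At high P4 the medians ran against that fit, at 1.10 CPM in 16 pregnant cows and 0.556 CPM in 6 nonpregnant cows. A pregnant cow was the higher there in 60.9% of pairs. The pregnant median was the lower in 2 of the 4 cells of block and P4. With the 14 cows of lowest and 14 of highest P4 it was the lower in 1. Over both P4 levels the log2 ratio of means was -1.67 with all cows and 0.45 without the 3 highest cows, all nonpregnant. The sign of that ratio thus changed with them.

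ENSBTAG00000026275 was the least abundant of the 8, with a median of 8 counts per library. It had 0, 0.631 and 3.78 CPM (lowest, median, highest) in pregnant cows and 0.172, 0.686 and 23.3 CPM in nonpregnant cows. Pregnant replicates 5 and 18 had 0 counts, where 3 counts would have been 0.206 and 0.230 CPM. The medians were nearly equal, with a log2 ratio of -0.12, while the log2 ratio of means was -1.70. A group of 4 nonpregnant cows stood above all pregnant cows. They were replicates 3 and 5 of block 2 at 23.3 and 11.8 CPM and replicates 16 and 15 of block 1 at 7.64 and 7.30 CPM. A pregnant cow was the higher in 44.7% of pairs, against a median of 50.7% over all genes. The log2 fold change was -1.89 ± 0.55 (SE) and -1.35 without nonpregnant replicate 3. It was -1.10 in limma voom, -0.90 at high P4 and -2.02 at low P4. At high P4 the medians ran against the sign of the fit, at 0.636 CPM in 16 pregnant cows and 0.393 CPM in 6 nonpregnant cows. A pregnant cow was the higher there in 53.1% of pairs. The pregnant median was the lower in 2 of the 4 cells of block and P4. With only the cows of lowest and highest P4 in place of the split at the median, it was the lower in 3.

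ENSBTAG00000031205 went against the name under which the 8 genes were grouped, genes leaning with later outcome. Its lowest, median and highest values were 1.45, 2.80 and 3.83 CPM in pregnant cows and 1.58, 2.69 and 91.6 CPM in nonpregnant cows. The pregnant median was slightly the higher, and a pregnant cow was the higher in 52.7% of pairs. Nonpregnant replicate 3 had 91.6 CPM from 1503 counts, 15.3 times the next cow, nonpregnant replicate 17 at 5.97 CPM. The log2 fold change was -1.28 ± 0.40 (SE) with nonpregnant replicate 3 and -0.02 without it, and limma voom gave -0.30. In block 1, which does not hold that cow, it was 0.10 ± 0.22 (SE), and among cows with high P4 it was 0.01 ± 0.24 (SE). The fitted outcome difference of this gene thus rested on 1 library. With log2 P4 added to the outcome model, the fold change of ENSBTAG00000053542 was -1.62, against -2.29 without it, and that of ENSBTAG00000054069 was 1.12, against 1.56.

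**Figure D3:**
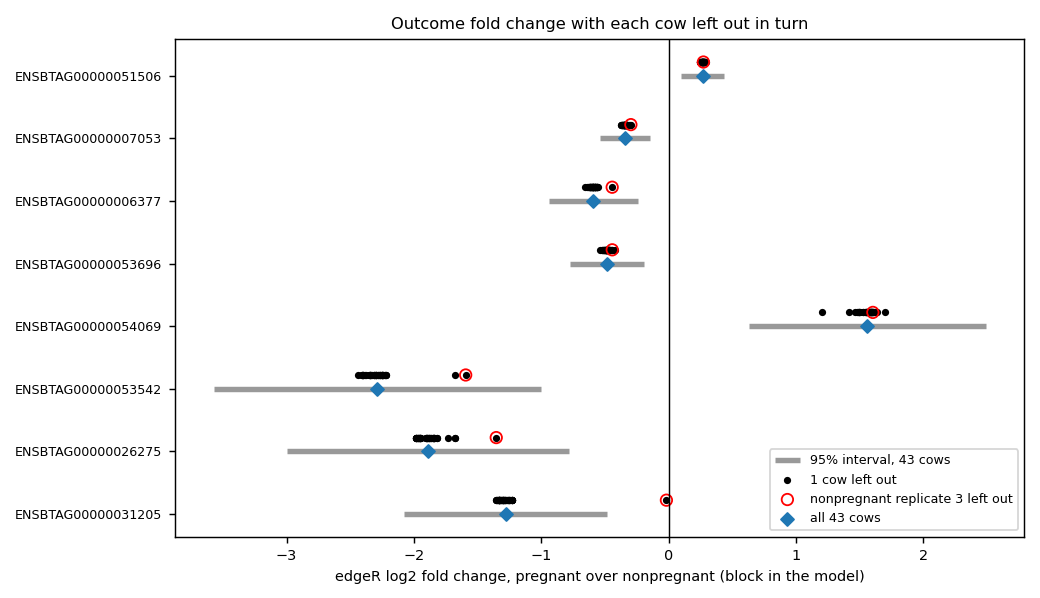
Outcome log2 fold change of each gene (pregnant over nonpregnant, block in the model) with all 43 cows (diamonds, with 95% intervals as grey bars) and with each cow left out in turn (black points). The genes were chosen on this comparison, so the intervals are a description and no test. Red circles mark the fit without nonpregnant replicate 3, which moves ENSBTAG00000031205 to -0.02 and ENSBTAG00000053542 to -1.59.

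The relation of the 8 genes to P4 did not enter their choice directly, but P4 was higher in pregnant cows, so both fits with and without outcome in the model are given. With block in the model, 78 of 15206 genes followed P4 at an adjusted p under 0.05 (0.513%), and none of the 8 did. At an unadjusted p under 0.05, 6 of the 8 were listed, 2 with a higher level at higher P4 (8.97% of all genes) and 4 with a lower one (7.42%), against 16.4% of all genes in either direction. With outcome added to the model, 2 of the 8 were listed, against 12.99% of all genes. A pair of genes came nearest to a call. ENSBTAG00000054069 had a slope of 0.95 ± 0.29 log2 per doubling of P4 (SE; edgeR adjusted p = 0.0968), and of 0.61 ± 0.29 with outcome in the model (edgeR adjusted p = 0.364). ENSBTAG00000053542 had a slope of -1.59 ± 0.46 log2 per doubling (edgeR adjusted p = 0.0829), of -1.07 ± 0.50 with outcome in the model (edgeR adjusted p = 0.347) and of -1.22 without nonpregnant replicate 3 (edgeR adjusted p = 0.153). DESeq2 called both, among 285 of 15206 genes that it called for P4 (adjusted p = 0.0409 for ENSBTAG00000054069 and 0.0168 for ENSBTAG00000053542). In limma voom 0 genes were called for P4, and thus neither of these (limma voom adjusted p = 0.432 and 0.206). Over the alternatives the adjusted p ran from 0.0409 to 0.961 for ENSBTAG00000054069 and from 0.0168 to 0.979 for ENSBTAG00000053542.

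The other 6 slopes were smaller or less certain. ENSBTAG00000006377 had -0.33 ± 0.12 log2 per doubling (SE; edgeR adjusted p = 0.145), ENSBTAG00000007053 -0.15 ± 0.07 (0.253) and ENSBTAG00000051506 0.13 ± 0.06 (0.251). ENSBTAG00000053696 had -0.14 ± 0.10 (edgeR adjusted p = 0.504) and ENSBTAG00000026275 -0.64 ± 0.39 (0.415), the last at -0.44 without nonpregnant replicate 3. ENSBTAG00000031205 had -0.64 ± 0.27 (edgeR adjusted p = 0.215), and -0.10 without nonpregnant replicate 3. The P4 and outcome comparisons use the same cows, so the signs of the 2 are not independent. The slope of ENSBTAG00000053696 was -0.23 ± 0.16 (SE) in the 25 pregnant cows alone and 0.03 ± 0.11 in the 18 nonpregnant cows alone. The slope of ENSBTAG00000054069 was 1.46 ± 0.52 (SE) in pregnant cows (edgeR adjusted p = 0.961) and 0.19 ± 0.24 in nonpregnant cows (edgeR adjusted p = 0.727). The difference between these slopes was 1.28 ± 0.59 (SE; 95% interval 0.09 to 2.46; edgeR adjusted p = 0.787) and did not pass.

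**Figure D4:**
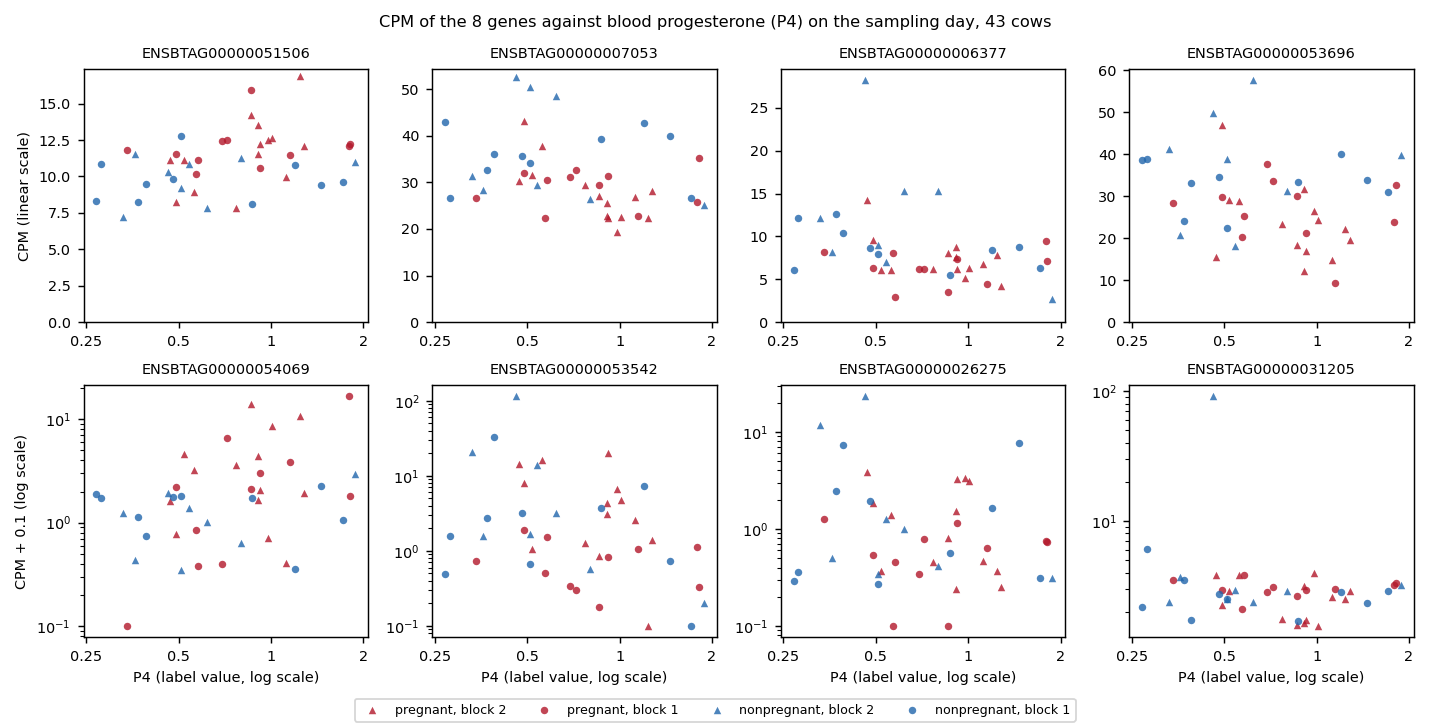
CPM of the 8 genes against the P4 label of each cow on a log axis (linear CPM axis in the top row, log axis of CPM + 0.1 in the bottom row). Red is pregnant and blue nonpregnant, triangles are block 2 and circles block 1; the pregnant cows of high P4 hold the 3 values of ENSBTAG00000054069 above 10 CPM.

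No gene of the 15206 differed in its P4 slope between outcomes at an adjusted p under 0.05 (0.0%, edgeR interaction test, with 872 or 5.73% at an unadjusted p under 0.05), and DESeq2 and limma voom called 0 as well. ENSBTAG00000054069 was the 1 gene of the 8 among the 872, with a higher slope in pregnant cows (4.07% of all genes had a higher and 1.66% a lower one). For a difference of the outcome effect between blocks, edgeR, DESeq2 and limma voom likewise called 0 genes (0.0%, with 506 or 3.33% at an unadjusted p under 0.05 in edgeR). Of the 8, only ENSBTAG00000031205 was among those 506 (2.05% higher, 1.28% lower), at -2.58 ± 0.67 log2 (SE; edgeR adjusted p = 0.999), and without nonpregnant replicate 3 the value was -0.25 (edgeR adjusted p = 0.920). The larger outcome differences of ENSBTAG00000053696 and ENSBTAG00000006377 in block 2 did not pass either. They differed between blocks by -0.35 ± 0.29 and -0.28 ± 0.35 log2 (SE; edgeR adjusted p = 0.999 each), and without nonpregnant replicate 3 by -0.28 and 0.015. ENSBTAG00000053542, whose medians ran in opposite directions in the 2 blocks, differed by 1.21 ± 1.25 log2 (SE; edgeR adjusted p = 0.999), and by 2.93 without nonpregnant replicate 3 (edgeR adjusted p = 0.892). The outcome difference of ENSBTAG00000053696 differed by -0.25 ± 0.20 log2 per doubling of P4 (SE; edgeR adjusted p = 0.820).

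Between blocks, 63 of 15206 genes differed (0.414%), and none of the 8 did. At an unadjusted p under 0.05, 3 of the 8 were listed as higher in block 2 (7.98% of all genes) and 0 as lower (6.19%), against 14.2% of all genes in either direction. Without nonpregnant replicate 3, 1 of the 8 was listed, as higher, against 13.2% of all genes. ENSBTAG00000053542 had a log2 difference, block 2 over block 1, of 2.54 ± 0.66 (SE; edgeR adjusted p = 0.0594), and of 1.90 without nonpregnant replicate 3 (edgeR adjusted p = 0.219). DESeq2 called this gene (adjusted p = 0.00657), among 224 of 15206 genes that it called between blocks. It was not called in limma voom (adjusted p = 0.171), which called 834 genes. Its adjusted p ran from 0.00657 to 0.219 over the alternatives. In pregnant cows alone its medians were 3.65 CPM in block 2 and 0.624 CPM in block 1. The difference of ENSBTAG00000026275 was 1.29 ± 0.56 log2 (SE; edgeR adjusted p = 0.278), and 0.81 without nonpregnant replicate 3. That of ENSBTAG00000031205 was 0.84 ± 0.40 log2 (SE; edgeR adjusted p = 0.331) with nonpregnant replicate 3 and -0.15 without it. The steady genes had log2 differences of -0.02 for ENSBTAG00000051506, -0.02 for ENSBTAG00000007053 and -0.03 for ENSBTAG00000053696, and 0.33 ± 0.17 (SE) for ENSBTAG00000006377.

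Pairs of the 8 genes were then compared between cows of the same outcome and block, so that differences in mean between outcomes or blocks did not enter. Over 28 pairs, log2 CPM residuals were correlated for 2 pairs after adjustment (two-sided permutation within outcome and block, 100000 resamples, 43 cows). The share of correlated pairs over all tested genes was not computed, so this count cannot be called particular to the 8 genes. The burst genes ENSBTAG00000053542 and ENSBTAG00000026275 varied together (Pearson r = 0.72, permutation p = 1e-05, the smallest these permutations can give, adjusted p = 0.00028; Spearman rho = 0.67, adjusted p = 0.00028). Their r was 0.82 in block 2, 0.55 in block 1, 0.66 without the 2 cows farthest from the median of ENSBTAG00000053542 and 0.66 without nonpregnant replicate 3. Nonpregnant replicates 3, 5 and 15 were among the 4 highest cows of both genes. Both genes were chosen on outcome values that include these cows, so the choice can enter their r. The steady genes ENSBTAG00000007053 and ENSBTAG00000053696 also varied together (Pearson r = 0.50, permutation p = 0.00162, adjusted p = 0.0227; Spearman rho = 0.48, permutation p = 0.00293, adjusted p = 0.0410). Their r was 0.49 in block 2, 0.52 in block 1, 0.39 without the 2 farthest cows of ENSBTAG00000007053 and 0.47 without nonpregnant replicate 3 (permutation adjusted p = 0.0468). Nonpregnant replicates 3 and 4 were among the 3 highest cows of both genes. The choice of the 8 on outcome values that include these cows can enter this r as well. ENSBTAG00000051506, the steady gene of opposite direction, had r = -0.42 with ENSBTAG00000007053 (permutation p = 0.0108, adjusted p = 0.0758), which did not pass. ENSBTAG00000054069 passed with none of the other 7 genes. The 3 correlations of ENSBTAG00000031205 above 0.3 (with ENSBTAG00000006377, ENSBTAG00000053542 and ENSBTAG00000026275) fell to between -0.10 and 0.04 without nonpregnant replicate 3.

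**Figure D5:**
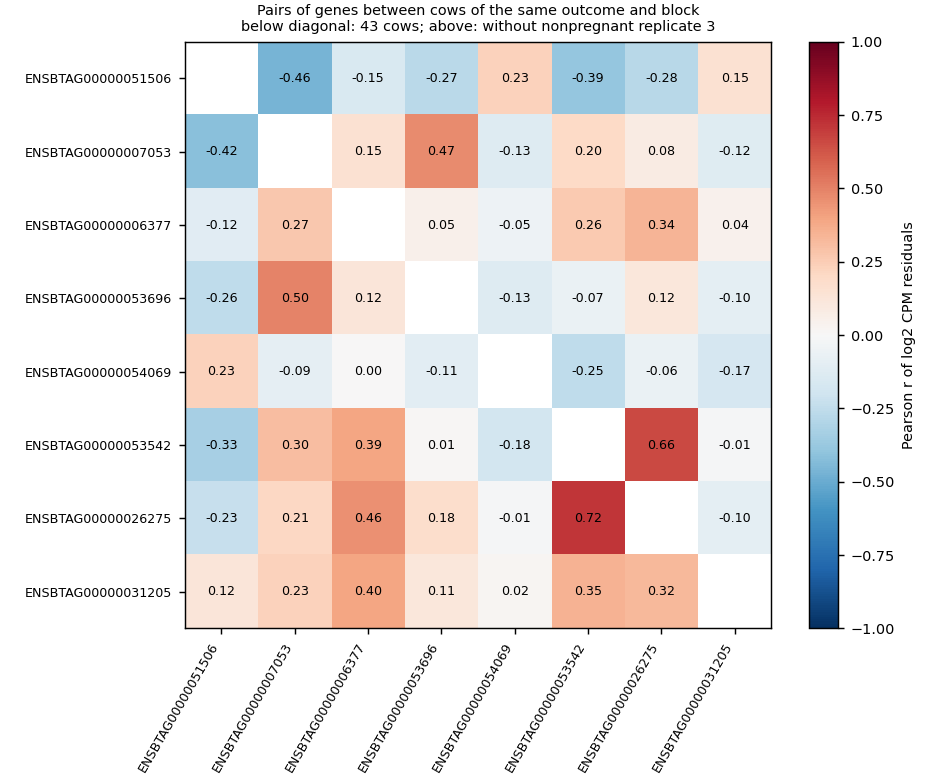
Pearson r of log2 CPM residuals (outcome and block removed) for the 28 pairs, with all 43 cows below the diagonal and without nonpregnant replicate 3 above it. The pair ENSBTAG00000053542 and ENSBTAG00000026275 stays at 0.66 without that cow, and the correlations of ENSBTAG00000031205 then lie between -0.17 and 0.15.

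Some of the 8 genes moved with measures of the library, over 32 relations of a gene with total counts, genes detected, the share of the 10 most abundant genes or the TMM factor (residuals as above). The 2 farthest cows here are those farthest from the median of the library measure. The share of all tested genes with such relations was not computed, so they cannot be called particular to the 8 genes. ENSBTAG00000007053 was higher where more genes were detected (Pearson r = 0.41, permutation p = 0.00178, adjusted p = 0.0402; Spearman rho = 0.46, adjusted p = 0.0294; 0.39 in block 2, 0.53 in block 1, 0.32 without the 2 farthest cows and 0.47 without nonpregnant replicate 3). The median number of detected genes was 18225 in pregnant and 18292 in nonpregnant cows. ENSBTAG00000026275 was higher where the 10 most abundant genes took more of the library (Pearson r = 0.46, permutation p = 0.00377, adjusted p = 0.0402; 0.47 in block 2, 0.45 in block 1 and 0.34 without the 2 farthest cows), which passed neither on ranks (rho = 0.36, permutation adjusted p = 0.192) nor without nonpregnant replicate 3 (r = 0.34, permutation adjusted p = 0.156). That share had a median of 5.63% in pregnant and 5.07% in nonpregnant cows. ENSBTAG00000031205 was lower where the TMM factor was higher (Pearson r = -0.35, permutation p = 0.00368, adjusted p = 0.0402; -0.49 in block 2, -0.31 in block 1 and -0.35 without the 2 farthest cows), which also passed neither on ranks (rho = -0.35, permutation adjusted p = 0.192) nor without nonpregnant replicate 3 (r = -0.30, permutation adjusted p = 0.230). A further 2 relations passed only in part. ENSBTAG00000031205 was lower where more genes were detected on ranks (rho = -0.47, permutation adjusted p = 0.0294) and without nonpregnant replicate 3 (r = -0.42, permutation adjusted p = 0.0388), but not with all cows (r = -0.27, permutation adjusted p = 0.0830). ENSBTAG00000007053 was lower in libraries of more counts without nonpregnant replicate 3 (r = -0.48, permutation adjusted p = 0.0388), but not with all cows (r = -0.40, permutation adjusted p = 0.0844) or on ranks (rho = -0.30, permutation adjusted p = 0.255). Median total counts were 15324201 in pregnant and 16186758 in nonpregnant cows. The part of these measures in the outcome differences was not tested.

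For each of the 8, the tested genes with the most similar pattern over the 43 cows were found by Spearman's rho of log2 CPM, as a description. No gene of the 8 was among the 2 likest of another. ENSBTAG00000037811 was second for ENSBTAG00000053542 (rho = 0.70) and first for ENSBTAG00000026275 (rho = 0.79), and its medians were 4.88 CPM in pregnant cows and 5.05 CPM in nonpregnant cows. The first for ENSBTAG00000053542 was ENSBTAG00000001191 (rho = 0.81), and that for ENSBTAG00000006377 was ENSBTAG00000017060 (rho = 0.82), at 23.1 CPM in pregnant cows and 28.9 CPM in nonpregnant cows (medians). ENSBTAG00000054069 was most like ENSBTAG00000020895 (rho = 0.69), which had medians of 26.3 CPM in pregnant cows and 15.7 CPM in nonpregnant cows. ENSBTAG00000051506 was most like ENSBTAG00000001342 (rho = 0.73), ENSBTAG00000007053 most like ENSBTAG00000004641 (rho = 0.77) and ENSBTAG00000053696 most like ENSBTAG00000020726 (rho = 0.67). ENSBTAG00000031205 was most like ENSBTAG00000018800, an abundant transcript with medians of 1567 CPM in pregnant cows and 1584 CPM in nonpregnant cows. Its rho there was 0.73 but its Pearson r only 0.36. These genes come from the same libraries, so shared depth and composition enter every rho.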

How the data were processed

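Endometrial brush samples of 43 cows were, per the labels' protocols, sequenced on a NovaSeq as 1 poly-A library each. The authors deposited raw read counts per Ensembl gene for each library, and the submitters' processing notes name the build ARS-UCD1.2 with HISAT2, HTSeq, Trim Galore 0.4.4 and FastQC 0.11.7. For strand and shared reads the settings were not given in the sources used here, so counts of overlapping or near-identical genes may be uncertain.

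Counts were kept at edgeR's filterByExpr limit (minimum count 10, smallest group 18), which left 15206 of 27570 genes, and scaled by TMM (factors 0.814 to 1.14). Genes were tested by the quasi-likelihood method of edgeR 4.0.16 (robust, R 4.3.3), with p adjusted by Benjamini-Hochberg over all 15206 genes and called under 0.05. Outcome was fitted with block, log2 P4 with block, and each interaction with its main terms. The SE is the absolute log2 fold change over the square root of F. Correlations used log2 CPM with a prior count of 2, less the mean of each outcome and block. Their permutation tests drew 100000 resamples. Alternatives were DESeq2 1.42.0, limma 3.58.1 voom, RLE factors, other filters, other covariates and P4 scales, cows left out in turn and parts of the cows. The fits within 1 block, P4 level or outcome and those without nonpregnant replicate 3 (beyond the outcome comparison) were chosen after seeing the data. The fitting and permutation scripts had first been tested on simulated data.

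The 8 genes, and the lists, were chosen with earlier results of these data known. The genes named are those 8 and the 2 tested genes most like each by Spearman's rho, of which 8 are printed. Lists of cell type markers and pathway genes were set by symbol, and a RefSeq gene table of assembly ARS-UCD2.0 matched 0 of the identifiers, so none was tested and no sequence or position is given. Each cow is 1 sample of its group.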

Additional observations from a re-analysis of the deposited data

Results flagged for a closer look

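Within outcome and block, 16 sets of cows (8 genes in the 8 nonpregnant cows of block 2 and in the 10 of block 1) were examined for a cow far from the others by Dixon's ratio of gap to range, and 4 had one. Chance flags about 1 in 20 sets of normal values, a rate that does not hold here, since CPM is skewed and the genes were chosen on values that include these cows. ENSBTAG00000053542 was at 115 CPM in nonpregnant replicate 3, with the next of the 8 nonpregnant cows of block 2 at 20.7 CPM. The same gene was at 32.97 CPM in nonpregnant replicate 15, with the next of the 10 nonpregnant cows of block 1 at 7.10 CPM. ENSBTAG00000031205 was at 91.6 CPM in nonpregnant replicate 3, with the next at 3.59 CPM, and at 5.97 CPM in nonpregnant replicate 17, with the next of block 1 at 3.37 CPM. Groups of pregnant cows held more than 10 animals and were not examined in this way.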

How the results depend on the processing

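The outcome comparison called 0 genes under each alternative and without each cow, except 5 with no low-count filter. For P4, the 78 genes became 0 with limma voom, 285 with DESeq2, 181 with no filter, 14 with block and outcome, 26 on the linear scale, 124 on ranks, 47 without nonpregnant replicate 3, 0 in pregnant cows alone and 1 in nonpregnant cows alone. The 63 block genes became 224 with DESeq2, 834 with limma voom and 30 without the outcome term. With no filter, 7 genes were called for the difference in P4 slope between outcomes. Genes with all 4 cells in 1 direction numbered 2 with the 14 cows of lowest and 14 of highest P4, against 4. Correlated pairs numbered 8 with outcome and block not removed, against 2. Single values reversed 8 times. ENSBTAG00000031205's outcome difference was 0.10 in block 1 and 0.0089 at high P4, and its block difference was -0.014 in limma voom and -0.15 without nonpregnant replicate 3. ENSBTAG00000053696's P4 slope was 0.028 in nonpregnant cows. ENSBTAG00000051506's block difference was 0.012 without the outcome term. ENSBTAG00000006377's outcome-by-block value was 0.015 without nonpregnant replicate 3, and ENSBTAG00000026275's outcome-by-P4 value was 0.83 in limma voom. Except for fits on fewer cows, the cause was not tested. ENSBTAG00000026275 was not tested where CPM had to exceed 1 in 18 cows. Medians of 8, 20 and 27 counts limit ENSBTAG00000026275, ENSBTAG00000053542 and ENSBTAG00000054069. No paired analysis was possible because every cow gave 1 library and the numbers of replicates were assigned only as names.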

Other observations

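Under a limit on the single highest cow, at 25% of summed CPM, 73 genes (0.480%) were held by 1 cow, and 3 of the 8 were among them. The choice of the 8 on outcome can enter that count. Pregnant replicate 25 was the highest cow in 21 of those 73 genes and nonpregnant replicate 3 in 5. All 5 genes that edgeR called for outcome with no low-count filter were lower in pregnant cows, and none was one of the 8.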
